A study of Mus musculus with 6 samples.

Results

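The genes described here make, break down and sense prostaglandins: Pla2g4a, Ptgs1, Ptgs2, Ptges, Ptges2, Ptges3, Ptgis, Hpgd, Ptger2 and Ptger4. They were chosen by gene symbol from a table of RNA levels, and 9 of the 10 symbols were found among the 29595 genes of the table. Ptgis, the prostacyclin synthase, was not analysed here. RNA was sequenced from TKPTS, a cell line derived from mouse renal proximal tubule. The cells received either pcDNA3.1-Hnf3a-Flag, a plasmid that expresses Flag-tagged HNF3α (gene Foxa1; the Hnf3a group, n = 3), or pcDNA3.1-Flag with no insert (the pcDNA group, n = 3), and were harvested 24 h later. The genotype label of the pcDNA cells is WT, and the labels of these samples give no other treatment. The share of cells that took up the plasmid is not given in the labels. The labels do not say whether replicates came from separate cultures. The p-values therefore set group differences against the spread between these samples, which may be technical.

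Prostaglandins are lipid mediators made on demand from arachidonic acid. Cytosolic phospholipase A2, encoded by Pla2g4a, releases the fatty acid from membranes, the cyclooxygenases Ptgs1 and Ptgs2 turn it into an unstable endoperoxide, and terminal synthases turn that into prostaglandin E2 and its relatives. In the kidney these mediators adjust blood flow, salt handling and the response to injury. Prostaglandin E2 acts through cell surface receptors, of which those encoded by Ptger2 and Ptger4 raise cyclic AMP, and the dehydrogenase encoded by Hpgd inactivates it after uptake. The question of the series is which transcripts HNF3α changes, and here it is asked of this pathway.

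The total estimated count was 60473818 to 71154667 per library. A single sequenced fragment was worth about 4 counts, and a level of 12 counts (about 3 fragments, counting error only) was taken as the detection floor. Foxa1 itself was at 284.2 to 334.2 FPKM in the Hnf3a libraries and at 9.49 to 9.96 FPKM in the pcDNA libraries. FPKM is the number of fragments per kilobase of transcript, scaled to library size, and it allows genes of different length to be compared. Of 15 listed epithelial and proximal tubule markers, 13 were found in the table. The epithelial genes Krt18, Cdh1 and Epcam averaged over 100 FPKM in both groups. Krt18 averaged 247.2 FPKM with Hnf3a and 214.1 FPKM with pcDNA (edgeR adjusted p = 0.00148). For Cdh1 and Epcam the edgeR adjusted p-values were 0.375 and 0.919. Of the defining proximal tubule genes, Aqp1 averaged 1.13 and 0.944 FPKM in the Hnf3a and pcDNA groups, and Lrp2, Cubn, Hnf4a and Slc5a2 were under 0.05 FPKM in both. The summed level of 8 fibroblast markers was 7.65 and 9.52 FPKM in Hnf3a replicates 2 and 3 against 0.107 to 0.237 FPKM in the other 4 libraries. Macrophage markers exceeded the floor for 9 and 10 of 10 genes in the same 2 libraries and for 2 to 4 of 10 in the others. Endothelial markers summed to 0.489 to 0.491 FPKM with Hnf3a and 0.758 to 1.01 FPKM with pcDNA, and collecting duct markers to 3.48 to 4.04 and 4.69 to 5.68 FPKM. Most of each sum was 1 gene, Cdh5 and Aqp3, which fell (edgeR adjusted p = 0.000821 and 0.0254), while Tek and Scnn1g rose from lower levels (edgeR adjusted p = 0.0194 and 0.0281). Results that rest on Hnf3a replicates 2 and 3 are also given with replicate 1 alone. Values in a row are in the order of replicates 1, 2 and 3.

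The bases upstream of the transcription start are shown for the cyclooxygenase gene with the highest level and for the phospholipase gene, which has 2 annotated starts. They are 250 bases long, from RefSeq on GRCm38.p6, written 5′ to 3′ on the strand of the gene. The Ptgs2 window lies at chr1:150099781-150100030 (plus strand), and the Pla2g4a windows lie at chr1:149961291-149961540 and chr1:149922440-149922689 (minus strand). Capitals mark matches to the motifs listed in the next paragraph.
Ptgs2: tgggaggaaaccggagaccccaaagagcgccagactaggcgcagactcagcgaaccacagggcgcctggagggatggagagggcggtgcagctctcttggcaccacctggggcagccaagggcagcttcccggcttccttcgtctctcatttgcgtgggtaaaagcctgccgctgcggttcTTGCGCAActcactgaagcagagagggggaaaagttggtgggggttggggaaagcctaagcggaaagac
Pla2g4a upstream start: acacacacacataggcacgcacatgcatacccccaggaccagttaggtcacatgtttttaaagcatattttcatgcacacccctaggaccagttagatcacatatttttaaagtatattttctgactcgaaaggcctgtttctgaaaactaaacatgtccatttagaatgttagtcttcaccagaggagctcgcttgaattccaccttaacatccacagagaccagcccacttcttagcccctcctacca
Pla2g4a internal start: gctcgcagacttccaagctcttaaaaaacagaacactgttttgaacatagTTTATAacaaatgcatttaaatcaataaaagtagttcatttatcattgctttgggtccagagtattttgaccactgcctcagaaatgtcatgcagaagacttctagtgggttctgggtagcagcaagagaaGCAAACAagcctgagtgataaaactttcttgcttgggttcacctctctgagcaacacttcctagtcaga

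All 9 genes matched, with 10 windows in all. On both strands, the search covered the forkhead motif TGTTTAC or TGTTTGC, which FOXA proteins recognise, the cyclic AMP response element TGACGTCA, the C/EBP motif TTGCNNAA, the AP-1 motif TGANTCA, the boxes TATAAA and CCAAT, and the NF-κB motif. A forkhead match was found in 1 of the 10 windows, that of the internal Pla2g4a start, as GCAAACA from 69 to 63 bases before the start. The same window held a TATA match, TTTATA, from 200 to 195 bases before the start, and 12.4% of all windows held this motif. Among all 32851 windows of the same length, 7.29% held a forkhead match. The Ptgs2 window held a C/EBP match, TTGCGCAA, from 69 to 62 bases before the start, and 9.56% of all windows held this motif. CCAAT was found upstream of Ptger2 and Ptger4 and an NF-κB match upstream of Ptges3. These motifs occurred in 33.8% and 7.25% of all windows. No window of these 9 genes held the cyclic AMP element or the AP-1 motif, which occurred in 1.55% and 6.75% of all windows. Bases outside the windows and partial forms of the motifs were not searched, so elements elsewhere in these promoters are not covered. The windows also differed in base composition. The share of G and C was 73.2% for Ptges3, 61.6% for Ptgs2, 66.8% for Ptger4 and 57.6% for Ptges2. It was 43.2% and 39.6% for the upstream and internal Pla2g4a starts and 48% for Ptgs1. For Ptges, Hpgd and Ptger2, the genes with the lowest levels, it was 59.6%, 56.8% and 38%.

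The levels of the 9 genes spanned about 3 orders of magnitude, and the order of their means is given here with the range over all libraries. Ptges3 was the most abundant, at 91.4 to 101.8 FPKM over the 6 libraries, followed by Ptgs2 at 49.7 to 54.1 FPKM. Ptger4, at 5.82 to 6.70 FPKM, and Ptges2, at 4.96 to 6.17 FPKM, overlapped and could not be put in order beyond their spread. Pla2g4a, at 2.48 to 3.30 FPKM, was above Ptgs1, at 1.06 to 1.63 FPKM, and Ptgs1 was above Ptges, at 0.351 to 0.771 FPKM. Hpgd, at 0.0765 to 0.216 FPKM, and Ptger2, at 0.0640 to 0.136 FPKM, were the least abundant and overlapped. Ptgs2 and Ptges3 stood at the 94.9th and 97.6th percentile of the 17824 tested genes by mean FPKM, and Hpgd and Ptger2 at the 11.3th and 8.12th.

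**Figure D1:**
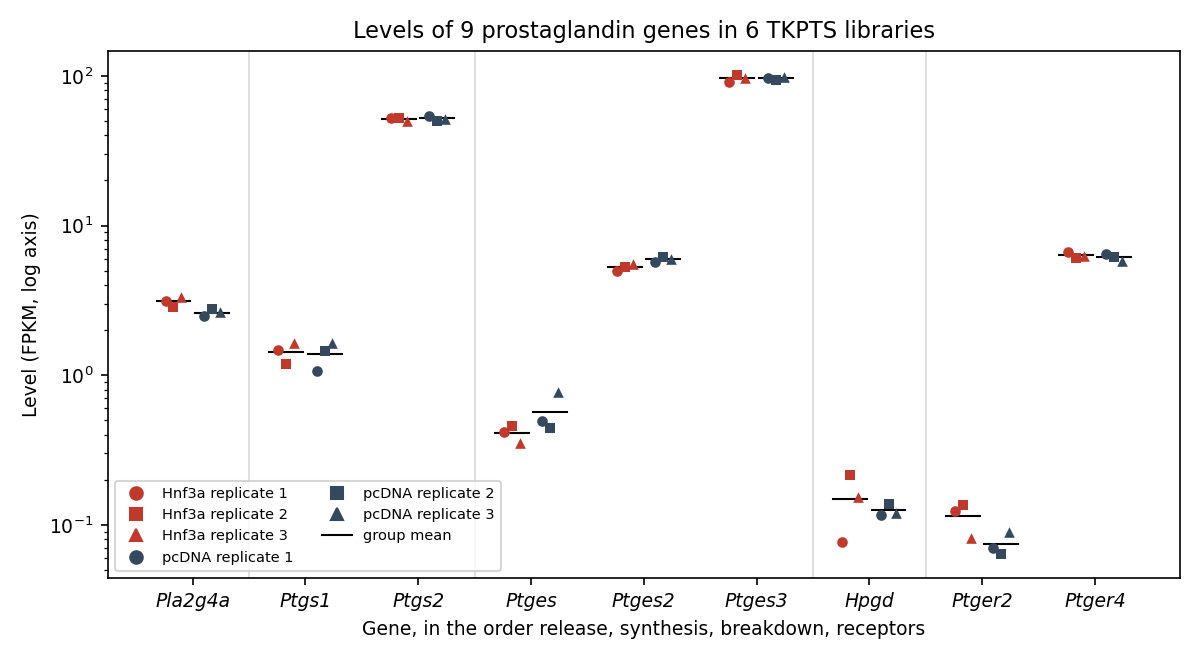
Level in FPKM (log axis) of the 9 prostaglandin genes in each library, ordered by step of the pathway, with Hnf3a libraries in red, pcDNA libraries in blue-grey, a symbol for each replicate number and a line at each group mean. Ptges3 and Ptgs2 sit near 97 and 52 FPKM, Hpgd and Ptger2 near or under 0.2 FPKM, and the groups are apart only for Pla2g4a and Ptges2.

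Among the cyclooxygenases, the prostaglandin E synthases and the 2 receptors, a single gene held most of the summed FPKM. Ptgs2 made up 96.8% to 98.1% of the cyclooxygenase FPKM in every library, and its level was 30.5 to 50.8 times that of Ptgs1. Ptges3 made up 93.4% to 94.7% of the FPKM of the 3 prostaglandin E synthase genes, while Ptges, the inducible membrane-bound synthase, made up 0.34% to 0.738%. Ptges3 is also known as p23, a cochaperone of HSP90, so its level does not stand for synthase alone. Among the receptors, Ptger4 made up 97.8% to 99% of the summed Ptger2 and Ptger4 level.

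None of the 9 genes passed the threshold between the groups. In edgeR's quasi-likelihood test, 0 of 9 had an adjusted p under 0.05, where 3.17% of all 17824 tested genes did. At an unadjusted p under 0.05 there were 2, Pla2g4a (higher) and Ptges2 (lower), where 13.5% of all tested genes reached that level, 6.55% higher and 6.98% lower. Limma on log2(FPKM + 0.1) and the DESeq2 Wald test also called 0 of 9, beside 1.32% and 4.59% of all tested genes. Over all 17 alternatives, which are other filters, scalings and tests and fits without a library, the share of tested genes called ran from 1.30% in limma on log2(FPKM + 1) to 4.96% where at least 1 FPKM was required in 3 libraries. The log2 ratio of Hnf3a over pcDNA, given from here on with its standard error (SE), had a median of 0.042 over the 9 genes and 0.00085 over all tested genes, and 5 were positive and 4 negative. In bulk RNA a change in a few transfected cells and a smaller change in all cells cannot be told apart.

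The step of fatty acid release was represented by Pla2g4a (ENSMUSG00000056220; chromosome 1, 149829618 to 149961290, minus strand). Pla2g4a was at 3.15, 2.88 and 3.30 FPKM with Hnf3a and 2.48, 2.75 and 2.63 FPKM with pcDNA. All 3 Hnf3a values lay above all 3 pcDNA values, and groups that do not overlap were seen for 19.0% of all tested genes. The log2 ratio was 0.24 ± 0.072 (SE, 95% interval 0.083 to 0.39), a ratio of 1.18, with an edgeR adjusted p of 0.113. Over the alternatives its adjusted p ran from 0.0685 to 0.376, and its log2 ratio stayed between 0.18 and 0.30. Taken by itself, the difference in Pla2g4a was larger than the spread within the groups, but it did not pass after adjustment over all genes.

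The cyclooxygenases are the committed step and the target of aspirin and related drugs. Ptgs2 (ENSMUSG00000032487; chromosome 1, 150100031 to 150108227, plus strand) is the inducible enzyme. It was at 52.7, 52.2 and 49.7 FPKM with Hnf3a and 54.1, 50.3 and 51.6 FPKM with pcDNA. The groups overlapped throughout. The log2 ratio was -0.021 ± 0.036 (SE), and the 95% interval, -0.099 to 0.058, corresponds to a ratio between 0.934 and 1.04 (edgeR adjusted p = 0.895). With at least 49.7 FPKM in every library, depth was not the limit for this gene. Ptgs1 (ENSMUSG00000047250; chromosome 2, 36230426 to 36252272, plus strand), the constitutive enzyme, was at 1.47, 1.19 and 1.63 FPKM with Hnf3a and 1.06, 1.45 and 1.63 FPKM with pcDNA. The groups overlapped here too. Its log2 ratio was 0.042 (edgeR adjusted p = 0.957), with a wider interval of -0.31 to 0.39.

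Of the prostaglandin E synthases, Ptges2 came nearest to the threshold. Ptges2 (ENSMUSG00000026820; chromosome 2, 32395896 to 32405772, plus strand), the second membrane-associated synthase, was at 4.96, 5.28 and 5.50 FPKM with Hnf3a and 5.68, 6.17 and 6.00 FPKM with pcDNA. All 3 Hnf3a values lay below all 3 pcDNA values. Ptges2 had a log2 ratio of -0.19 ± 0.057 (SE, 95% interval -0.31 to -0.067), and the edgeR adjusted p was 0.108, running from 0.0813 to 0.364 over the alternatives. Ptges3 (ENSMUSG00000071072; chromosome 10, 128058954 to 128077272, plus strand), the cytosolic synthase, was at 91.4, 101.8 and 97.3 FPKM against 97.2, 94.2 and 97.7 FPKM. The lowest and the highest of these 6 values were both from Hnf3a libraries. Its log2 ratio was -0.0014 (edgeR adjusted p = 0.994) with a 95% interval of -0.083 to 0.080, which puts the ratio between 0.944 and 1.06.

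Ptges (ENSMUSG00000050737; chromosome 2, 30889471 to 30903297, minus strand), the inducible synthase that usually works with Ptgs2, was at 0.421, 0.457 and 0.351 FPKM in the Hnf3a libraries. In the pcDNA libraries it was at 0.492, 0.446 and 0.771 FPKM. The groups overlapped, and the highest value was that of pcDNA replicate 3. The log2 ratio was -0.48 ± 0.23 (SE) with an edgeR adjusted p of 0.384, and it was -0.20 without pcDNA replicate 3. The interval was -0.96 to 0.0088, and Ptges had 103 to 222 estimated counts per library.

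Breakdown and reception were represented by low transcripts and by Ptger4. Hpgd (ENSMUSG00000031613; chromosome 8, 56294585 to 56321043, plus strand) was estimated at 10, 29 and 20 counts with Hnf3a and 14, 18 and 15 with pcDNA. Hnf3a replicate 1 was under the floor of 12 counts and the other 5 libraries were above it, and the groups overlapped. Its log2 ratio of 0.23 had an interval of -0.91 to 1.36, and the value was -0.10 without Hnf3a replicate 2 and -0.67 in Hnf3a replicate 1 alone against pcDNA. No difference in Hpgd was detected, and the interval corresponds to a ratio between 0.534 and 2.57. Ptger2 (ENSMUSG00000037759; chromosome 14, 44988195 to 45003820, plus strand), the EP2 receptor gene, had 48, 57 and 32 counts against 26, 25 and 35. The highest pcDNA value lay above the lowest Hnf3a value. Ptger2 had a log2 ratio of 0.58 ± 0.36 (SE) and an interval of -0.19 to 1.36. Ptger4 (ENSMUSG00000039942; chromosome 15, 5206661 to 5244172, minus strand), the EP4 receptor gene, was at 6.70, 6.11 and 6.29 FPKM with Hnf3a and 6.49, 6.14 and 5.82 FPKM with pcDNA. The groups overlapped, with a log2 ratio of 0.042 and an interval of -0.076 to 0.16. The edgeR adjusted p-values were 0.921, 0.552 and 0.836 for Hpgd, Ptger2 and Ptger4.

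**Figure D2:**
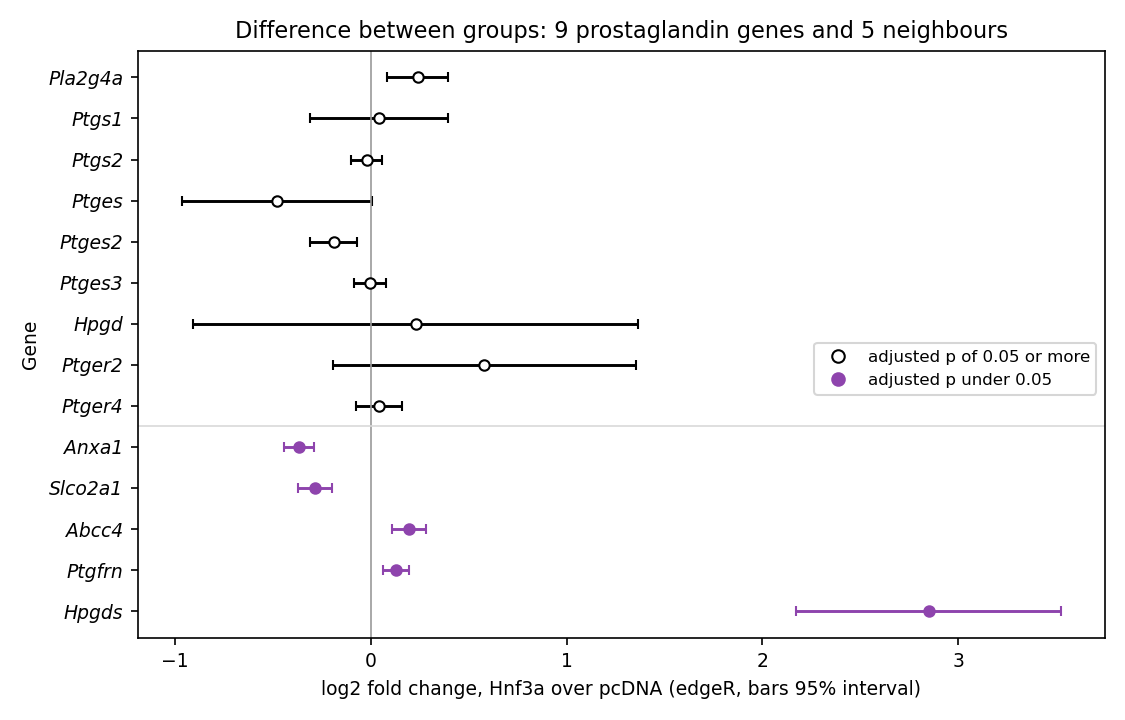
Log2 fold change of Hnf3a over pcDNA from edgeR (x axis) with 95% intervals, for the 9 prostaglandin genes (above the line, open circles, adjusted p of 0.05 or more) and 5 other eicosanoid genes that passed (below the line, filled circles). The intervals of Ptgs2, Ptges3 and Ptger4 are narrow and include 0, those of Hpgd and Ptger2 are wide, and Hpgds stands apart at 2.85.

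Annotated genes overlap several of the 9, and the sources do not state if reads were assigned by strand. On the opposite strand Ttc33 overlaps Ptger4 and had 1238 to 1532 counts, so that part of the Ptger4 count is uncertain. The other overlapping genes that the table listed had at most 8 counts in any library. No annotated gene overlaps Ptgs2, Ptges2 or Ptges3. Of the genes described next, Anxa1 overlaps 1500015L24Rik (26 to 41 counts) and Slco2a1 overlaps Gm47468 (45 to 120 counts), both on the opposite strand.

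The wider eicosanoid pathway was described from a list of 74 symbols, of which 64 were found in the table and 46 passed the filter on low counts. Of these 46, 5 passed at an adjusted p under 0.05, 3 higher (Hpgds, Abcc4 and Ptgfrn) and 2 lower (Anxa1 and Slco2a1). This was 10.9% of the tested genes of the list, beside the 3.17% of all genes given above, with 1.04% of all genes higher and 2.13% lower. The list was chosen with earlier results of these data known, so its share is a description only. The median log2 ratio of the list was 0.065. Without Hnf3a replicate 2, or without any 1 of the pcDNA replicates, 3 genes passed. By branch, passing genes were 1 of 12 in the release of arachidonic acid, 0 of 4 in its reacylation and 1 of 8 among other prostanoid synthases. They were 2 of 6 in breakdown and transport and 1 of 4 in the receptor branch. In the lipoxygenase and leukotriene branch they were 0 of 10, and in the epoxide branch 0 of 2. The gene that passed in the receptor branch was Ptgfrn, which is named for its effect on a receptor. The receptor genes Ptger1, Tbxa2r and Pparg did not pass (edgeR adjusted p = 0.927, 0.238 and 0.765).

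The 2 genes that fell act before and after the enzymes described above. Anxa1, annexin A1, is a calcium-dependent membrane protein known as an inhibitor of phospholipase A2 and a mediator of glucocorticoid action. It was at 173.2, 175.6 and 164.5 FPKM with Hnf3a and 220.3, 227 and 210.3 FPKM with pcDNA, with no overlap. The log2 ratio was -0.37 ± 0.035 (SE, edgeR adjusted p = 3.21e-05), and it passed in all 17 alternatives. Slco2a1, the prostaglandin transporter that carries prostaglandins into cells for breakdown, was at 27.5, 26.8 and 24.9 FPKM against 32, 30.8 and 33.2 FPKM. Its log2 ratio was -0.28 ± 0.040 (SE, edgeR adjusted p = 0.000996), and it too passed in all 17 alternatives, with the adjusted p reaching 0.0484 in limma on log2(FPKM + 1).

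Of the 3 genes that rose, Abcc4 encodes MRP4, an export pump that carries prostaglandin E2 among other organic anions. Abcc4 was at 26.1, 26.2 and 23.7 FPKM with Hnf3a and 22.2, 22.2 and 21.6 FPKM with pcDNA. The groups did not overlap, and the log2 ratio was 0.20 ± 0.041 (SE, edgeR adjusted p = 0.0178). The call was lost without Hnf3a replicate 2 (adjusted p 0.141) and without pcDNA replicates 1, 2 or 3 (adjusted p 0.0884, 0.0988 and 0.109). It was also lost in the 3 limma fits (adjusted p 0.0991 to 0.107), so that Abcc4 passed in 10 of 17 alternatives. Ptgfrn, a membrane protein named for its effect on the prostaglandin F2α receptor, rose by a log2 ratio of 0.13, from a mean of 20.5 to 22.6 FPKM (edgeR adjusted p = 0.0405). It passed in 8 of 17 alternatives and lost the call without Hnf3a replicates 1 or 2 (adjusted p 0.0863 and 0.161) and without pcDNA replicates 1, 2 or 3 (adjusted p 0.194, 0.166 and 0.132).

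Hpgds, the hematopoietic prostaglandin D synthase, had 85, 150 and 120 estimated counts with Hnf3a and 12, 20 and 14 with pcDNA, at about 4 counts per fragment. In FPKM this was 0.179, 0.290 and 0.252 against 0.0242, 0.0388 and 0.0273, so that the level stayed low in both groups. The pcDNA counts were at or near the floor of 12 counts, so the size of the ratio is uncertain. The log2 ratio was 2.85 ± 0.31 (SE, 95% interval 2.17 to 3.52, edgeR adjusted p = 0.000122). It passed in all 16 alternatives that tested it, with log2 ratios up to 3.06 and, in limma on log2(FPKM + 1), as low as 0.27. With Hnf3a replicate 1 alone against pcDNA the log2 ratio was 2.44 (adjusted p 0.0328). In that replicate the fibroblast sum was 0.237 FPKM, against 0.107 to 0.169 FPKM with pcDNA. There 4 of 8 fibroblast and 2 of 10 macrophage markers were above the floor, against 1 to 3 and 3 to 4 with pcDNA. The other prostaglandin D synthase, Ptgds, had 11, 43 and 38 counts against 11, 6 and 3, an edgeR adjusted p of 0.139 and a log2 ratio of 2.07, which was 0.66 with Hnf3a replicate 1 alone. The part of the fibroblast and macrophage transcripts in the Hpgds and Ptgds values was not tested.

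**Figure D3:**
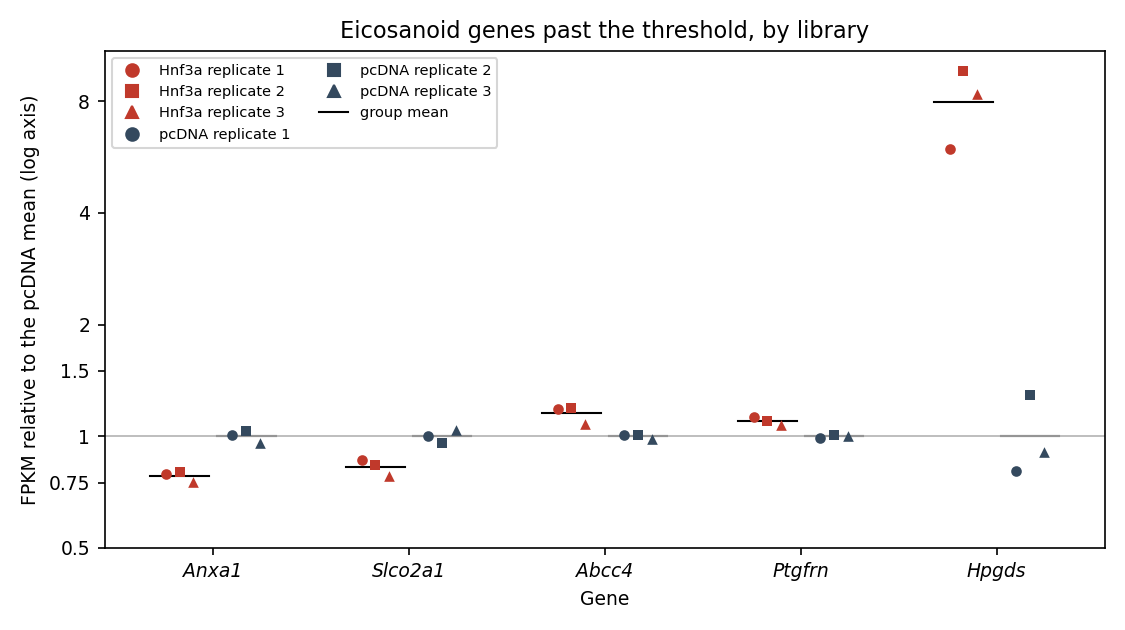
FPKM of the 5 eicosanoid genes that passed the threshold, in each library, divided by the mean of the 3 pcDNA libraries (log axis), with Hnf3a libraries in red, pcDNA libraries in blue-grey and lines at group means. Anxa1 and Slco2a1 lie below 1 in all 3 Hnf3a libraries, Abcc4 and Ptgfrn slightly above, and Hpgds far above.

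Cyclic AMP is the second messenger of the Ptger2 and Ptger4 receptors. Genes that respond to it or take part in its signalling were read from a list of 20, all tested. Of these, 3 passed, each lower in the Hnf3a group, and 0 passed higher. This was 15% of the list, beside 3.17% of all tested genes, of which calls were also more often lower (2.13%) than higher (1.04%). Without Hnf3a replicate 1 there were 2, and without any 1 of the other libraries there was 1, Fos. This list too was chosen with earlier results known. Its median log2 ratio was -0.050, with 14 genes negative and 6 positive. Of all 17824 tested genes, 8874 were negative and 8950 positive. Fos, an immediate early transcription factor that many signals induce, was at 11.9, 11.7 and 11.5 FPKM against 17, 16.8 and 18.5 FPKM. Its log2 ratio was -0.59 ± 0.052 (SE, edgeR adjusted p = 1.69e-05), and it passed in all 17 alternatives. Prkar2b, a regulatory subunit of protein kinase A, and Nr4a2, an orphan nuclear receptor, had log2 ratios of -0.32 and -0.36 with edgeR adjusted p-values of 0.0355 and 0.0473. Each passed in 6 of 17 alternatives. Prkar2b lost the call whichever of the 6 libraries was left out (adjusted p 0.0726 to 0.135). Nr4a2 lost it when any library other than Hnf3a replicate 1 was left out (adjusted p 0.099 to 0.207). Areg, an epidermal growth factor receptor ligand that prostaglandin E2 induces in many epithelia, had a log2 ratio of 0.045, and Crem, a cyclic AMP response factor, one of 0.17. Neither passed.

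The genes most like the 2 with the smallest p were ranked by the Pearson correlation (r) of their log2 CPM, a library-scaled count, across the 6 libraries, among 12599 other genes with a mean count of at least 100. For Ptges2 these were Vps37b, Gm5425 and Susd6 (r = 0.995, 0.994 and 0.991). For Pla2g4a they were Slc25a5, Ddx19b and Slc36a4 (r = 0.993 in each). With 6 points and the group structure shared by all of them, these values describe the libraries only.

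**Figure D4:**
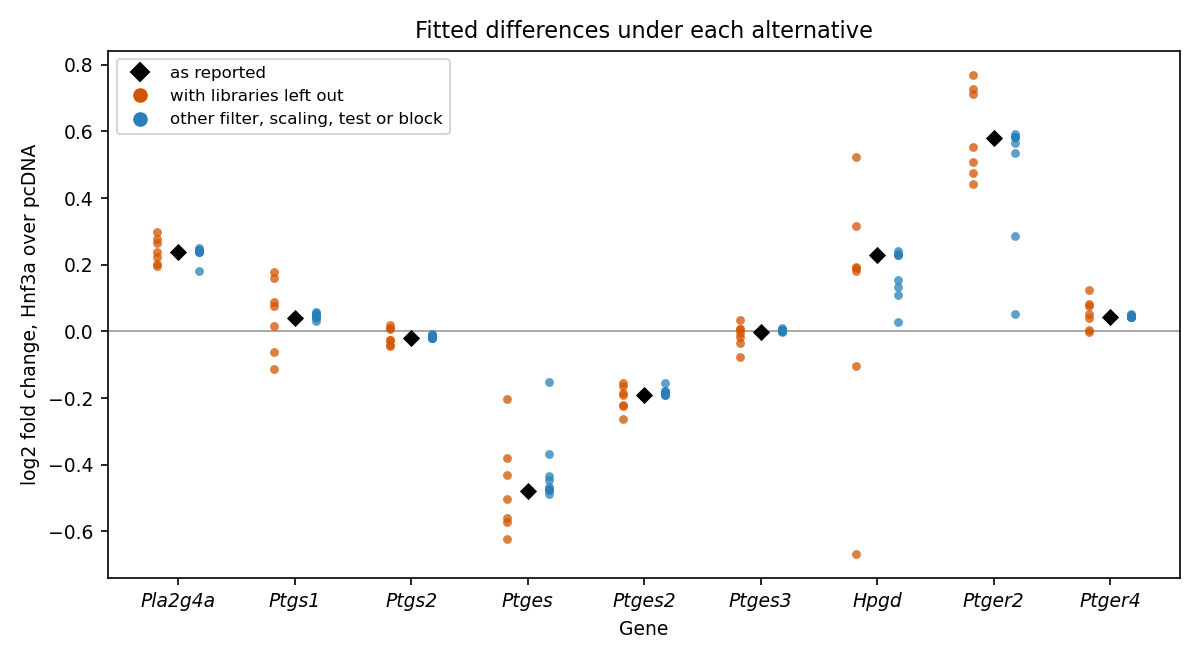
Log2 fold change of Hnf3a over pcDNA for the 9 prostaglandin genes (y axis) as reported (black diamonds), with libraries left out (orange), and with another filter, scaling, test or block (blue). Pla2g4a and Ptger2 stay above 0 and Ptges and Ptges2 below it, while Ptgs1, Ptgs2, Ptges3, Hpgd and Ptger4 fall on both sides of 0.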

How the data were processed

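RNA was sequenced from 6 TKPTS samples (3 Hnf3a, 3 pcDNA), grouped by their titles. Per the labels, libraries were made from oligo(dT)-selected RNA with dUTP marking of the second strand and molecular identifiers, and read as pairs of 150 bases. The deposited table holds, for each gene, 1 estimated count and 1 FPKM value per library. The submitters' processing notes name cutadapt 1.9, HISAT2 2.0.4, UMI-tools, StringTie 1.3.4d, DESeq2, edgeR and build mm10, without roles, so duplicate removal and the use of strand are not given in the sources used here. The estimated counts were whole numbers. More genes sat at 4 counts than at 3 or 5 in every library (for example 1148 against 680 and 378 in Hnf3a replicate 1), hence the floor of 12 counts, 0.169 to 0.198 CPM. The table is on GRCm38, since 25765 of its 29514 genes that are also in GENCODE vM21 had the same coordinates there. Coordinates are those of the table.

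Counts were filtered with filterByExpr, scaled by TMM and tested two-sided over 17824 genes with edgeR 4.0.16 in R 4.3.3 (glmQLFit with robust = TRUE, glmQLFTest, no covariate), with Benjamini-Hochberg adjustment over all genes and a threshold of 0.05. The SE was computed as the absolute log2 ratio divided by the square root of F, and 95% intervals used the t distribution with the total degrees of freedom. For 1 gene, exact permutation of 3 against 3 libraries has a smallest p of 0.1. Alternatives used limma 3.58.1 on log2(FPKM + 0.1), which understates the change of low genes, with pseudocounts 1 and 0.01, and DESeq2 1.42.0. The procedure was tested on simulated data.

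Named genes were the 10 listed, Foxa1, list genes past the threshold, genes needed to describe a branch, and the 3 genes most correlated with each of the 2 listed genes of smallest p. Ptgds, Areg, Crem and the marker and overlapping genes were named after their values were seen. The genes and lists were chosen with earlier results of these data known. Replicate numbers are shared by the groups, and deviations from the group means correlated at -0.0411, -0.0102 and 0.00998 for the same numbers, so they do not pair the libraries.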

Additional observations from a re-analysis of the deposited data

How the results depend on the processing

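None of the 9 prostaglandin genes passed under any of the 17 alternatives that tested it, and Foxa1 passed in all 17. The sign of genes near 0 was not fixed. Ptges3 had log2 fold changes of 0.0023 with every gene of at least 1 count, 0.0043 with at least 1 FPKM in 3 libraries, 0.0058, 0.0057 and 0.0058 in limma with pseudocounts of 0.1, 1 and 0.01, 6.3e-05 with DESeq2 size factors, 0.010 with total-count scaling, 0.00014 in the DESeq2 Wald test and 0.00031 with counts divided by 4. With Hnf3a replicate 1 alone against pcDNA, Ptgs2 was at 0.019 and Hpgd at -0.67. Leaving out 1 library at a time gave -0.11 to 0.18 for Ptgs1, -0.043 to 0.010 for Ptgs2, -0.035 to 0.034 for Ptges3, -0.10 to 0.52 for Hpgd and -0.00085 to 0.084 for Ptger4.

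The wider eicosanoid list had 3 genes past the threshold in each of the 3 limma fits, 3 to 5 with 1 library left out, 7 in the DESeq2 Wald test (3 higher, 4 lower) and 6 with Hnf3a replicate 1 alone, beside 5 as reported. The cyclic AMP list had 1 in each limma fit, 1 with Hnf3a replicate 1 alone against pcDNA, and 1 to 2 with 1 library left out. Over all genes the count was 236, 231 and 245 in the limma fits, 322 with Hnf3a replicate 1 alone, 819 in the DESeq2 Wald test, 661 with counts divided by 4, and 263 to 643 with 1 library left out, beside 565 as reported. It was 263 without Hnf3a replicate 2, and 286, 267 and 349 without pcDNA replicates 1, 2 and 3. Fits without a library had fewer samples, and otherwise the cause was not tested. Where Hnf3a replicate 1 stood alone, it was assumed to vary like the pcDNA libraries. With the replicate block, the cyclic AMP list had 1 gene past the threshold (Nr4a2 and Prkar2b were lost, adjusted p 0.0685 and 0.0778), the wider list 4 (Ptgfrn was lost, adjusted p 0.0783) and all genes 463. The block changed no other call among the 9 prostaglandin genes, Foxa1 and the genes of these lists. For the marker genes and the correlated genes, values with the block are not given here. With at least 1 FPKM required in 3 libraries, Ptges, Hpgd and Ptger2 had no value, nor had Hpgd and Ptger2 with counts divided by 4. Hpgd and Ptger2, the listed genes with the fewest counts, had the widest intervals of the 9.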
